A study of Rattus norvegicus with 20 samples.

Results

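The genes described here are 9 chemokines that attract neutrophils, monocytes and eosinophils: Cxcl1, Cxcl2 and Cxcl3 of the CXC family, and Ccl2, Ccl3, Ccl4, Ccl7, Ccl11 and Ccl20 of the CC family. They were chosen by name, as the array features whose gene name equalled one of these symbols, and they are 9 of the 13596 genes tested. The arrays measured RNA of whole rat oesophagus after surgery that lets stomach contents flow back into the oesophagus and inflame it. The groups were rats with surgical reflux oesophagitis given STW5 at 0.5 ml/kg (low dose), given STW5 at 2 ml/kg (high dose), given omeprazole at 30 mg/kg, or left untreated, and rats with a sham operation, all of the Wistar strain and with 4 arrays in each of the 5 groups. STW5 is a liquid herbal preparation used for stomach complaints, and omeprazole blocks the acid pump of the stomach. Dosing began 7 days ahead of surgery and went on for 10 days afterwards, per the labels, when the oesophagus was removed.

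Chemokines are small secreted proteins that direct white blood cells along a gradient towards the tissue that makes them. Cxcl1, Cxcl2 and Cxcl3 act on the neutrophil receptor Cxcr2, Ccl2 and Ccl7 act on the monocyte receptor Ccr2, Ccl3 and Ccl4 attract monocytes and T cells (Ccl3 through Ccr1), Ccl11 (eotaxin) acts on the eosinophil receptor Ccr3, and Ccl20 acts on Ccr6. Epithelial cells, vessel walls and macrophages make many of them within hours of injury, and their transcription is driven in large part by NF-kB, which cytokines such as interleukin 1 and tumour necrosis factor switch on.

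Values are log2 levels: the log2 signal of a gene's probe minus the 75th percentile of its array. A level can be compared between arrays for the same gene, but not between genes, whose probes differ in brightness. Differences were tested with limma on all genes at once, and a gene was called at a Benjamini-Hochberg adjusted p under 0.05. The 9 genes had 11 probes, of which 10 passed the brightness filter. Cxcl3 had a pair of probes that disagreed. The probe used was well above background on 15 arrays and has 1 spot per array. The other was above background on 0 of the 20 arrays, with levels between -7.85 and -6.62. The array annotation gives a RefSeq transcript for the silent probe and an Ensembl transcript for the probe used. It places the silent probe at chr14:18767637-18767696 and the probe used at chr14:18786265-18786324 (assembly rn4), whereas the gene spans 1725 bases in GRCr8. Untreated minus sham was -0.36 with the silent probe and 8.77 with the probe used. Values for Cxcl3 rest on the probe used, and which probe reads Cxcl3 was not tested. In whole tissue, fewer cells of a type and less RNA per cell cannot be told apart.

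Some arrays stood apart or went against their labels. Low-dose replicates 1 and 2 differed by only 1.38 times the spread between duplicate spots of an array, against 2.73 times or more for every other pair within a group, and were counted as 1 sample, which left 19 samples. Omeprazole replicate 2 and sham replicate 2 were the most alike arrays of different groups (2.25 times), and 8 of the 9 chemokines differed between them by 0.261 or less on the log2 scale. Values without this pair are given beside the results for Cxcl1, Cxcl2, Cxcl3 and Ccl3 that it bears on. Sham arrays lay on slide 1, the untreated and low-dose arrays on slide 2 and the high-dose and omeprazole arrays on slide 3, and each slide was scanned in a batch of its own. Low-dose STW5 against untreated and high-dose STW5 against omeprazole are therefore comparisons within a slide, and for every other comparison slide and group cannot be told apart. The deposited value table held, under all 8 STW5 column names, the scanner values of the other dose, and the study's design text numbers the STW5 groups in the other order from the sample titles. Doses below are those given in the labels of the scanned arrays, and with the names of the value table low and high dose would change places in every statement.

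The genes lie in clusters. In the rat assembly GRCr8, Cxcl2 (chr14:17465210-17467255), Cxcl1 (chr14:17477542-17479321) and Cxcl3 (chr14:17571900-17573624) fall within 108.4 kb of chromosome 14. Ccl2 (chr10:67503077-67504875), Ccl7 (chr10:67514095-67515945) and Ccl11 (chr10:67525975-67530576) fall within 27.5 kb of chromosome 10, and Ccl3 (chr10:68948889-68950439) and Ccl4 (chr10:68963893-68965728) within 16.84 kb of the same chromosome. Ccl20 lies alone on chromosome 9 (chr9:91837139-91839736).

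RefSeq promoter sequences were at hand for 4 of the 9 genes. For these 4 the 250 bases before each transcription start are shown 5′ to 3′ on the gene's own strand (GRCr8). In the arrays Cxcl1 and Cxcl2 moved together (Pearson r = 0.98 over 19 samples), Ccl7 stayed high under high-dose STW5 and Ccl20 moved least. Capitals mark matches to the NF-kB consensus on either strand, with overlapping matches run together. The regions are chr14:17479322-17479571 (minus strand), chr14:17467256-17467505 (minus strand), chr10:67513845-67514094 (plus strand) and chr9:91836909-91837158 (plus strand). The transcript start used for Ccl20 lies just inside the gene's annotated extent.
Cxcl1: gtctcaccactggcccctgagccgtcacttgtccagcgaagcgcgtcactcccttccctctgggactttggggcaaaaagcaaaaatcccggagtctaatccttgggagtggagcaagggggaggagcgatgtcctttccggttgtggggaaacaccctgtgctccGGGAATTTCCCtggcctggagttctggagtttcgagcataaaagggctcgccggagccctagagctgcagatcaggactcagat
Cxcl2: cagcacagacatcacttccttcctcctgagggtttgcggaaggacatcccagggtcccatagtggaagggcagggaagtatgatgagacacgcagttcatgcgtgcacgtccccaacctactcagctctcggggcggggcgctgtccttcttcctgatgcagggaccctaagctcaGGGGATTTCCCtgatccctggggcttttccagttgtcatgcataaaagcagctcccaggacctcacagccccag
Ccl7: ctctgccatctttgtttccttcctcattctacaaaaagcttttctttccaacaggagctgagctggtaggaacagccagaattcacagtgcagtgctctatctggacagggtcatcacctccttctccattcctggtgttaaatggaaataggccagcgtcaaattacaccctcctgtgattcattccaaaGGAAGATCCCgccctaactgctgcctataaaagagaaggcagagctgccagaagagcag
Ccl20: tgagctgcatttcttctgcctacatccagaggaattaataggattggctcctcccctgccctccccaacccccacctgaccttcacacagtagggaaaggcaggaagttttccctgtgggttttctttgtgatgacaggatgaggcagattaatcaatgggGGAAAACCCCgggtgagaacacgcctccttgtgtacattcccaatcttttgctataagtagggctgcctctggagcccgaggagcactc
All 4 windows held a match, as did 6.33% of the 33469 rat promoter windows of the same length. The match began 84 bases before the start in Cxcl1 and 74 bases before it in Cxcl2 and read GGGAATTTCC in Cxcl1 and GGGGATTTCC in Cxcl2. Counting both strands, 2 matches overlapped there in Cxcl1 and 3 in Cxcl2. In Ccl7 the match lay on the other strand, 59 to 50 bases before the start, and in Ccl20 on the other strand, 89 to 80 bases before it. The Cxcl1 and Cxcl2 promoters also held the letters CATAAAA, at 48 bases in Cxcl1 and 34 bases in Cxcl2. These letters were searched on the gene's own strand and found in 2.18% of all windows. Ccl7 held TATAAA at 34 bases (8.06% of all windows). A match is a run of letters and was not tested for binding.

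After surgery without treatment 8 of the 9 chemokines were higher than after sham surgery, all but Ccl20. In untreated oesophagitis against sham surgery 8 were called higher and 0 lower, beside 15.0% of all genes called higher and 17.8% called lower, and each of the 8 had every untreated array above every sham array (11.9% of all genes). The median difference over the 9 was 5.62, against a median of -0.08 over all genes. Under low-dose STW5 against untreated oesophagitis 8 were called lower, beside 16.2% of all genes, and these 8 lay wholly below the untreated arrays (15.8% of all genes). Under omeprazole against untreated 7 were called lower, beside 15.0%, and 8 lay wholly below (15.8%). Under high-dose STW5 against untreated only Ccl2 and Ccl4 were called lower, beside 5.14% of all genes. With Cxcl3 and Ccl3, 4 members lay wholly below the untreated arrays (9.42% of all genes), and the median difference of the 9 was -3.07, against -5.28 under the low dose and -5.02 under omeprazole.

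Under high-dose STW5 3 members were called higher than in sham rats (Ccl4, Ccl7 and Ccl11), beside 5.65% of all genes, each wholly above the sham arrays (8.85%). Leaving out single arrays gave 1 to 5 members, with 5 without sham replicate 2, and 1 without sham replicate 1 or 3 or high-dose replicate 3 or 4, while array-weighted limma gave 8. The comparisons with untreated rats share the untreated arrays, and those with sham rats share the sham arrays. Under low-dose STW5 and under omeprazole 0 of the 9 were called by limma, and 1 and 0 of them had an unadjusted p under 0.05. Across all genes 0% were called in either direction under the low dose, and 1.31% were called higher and 0.0662% lower under omeprazole. Array-weighted limma called 5 members for omeprazole. All shares in this paragraph are those of the unweighted fit with all arrays. The array-weighted counts and those with arrays left out have no share of their own beside them.

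**Figure D1:**
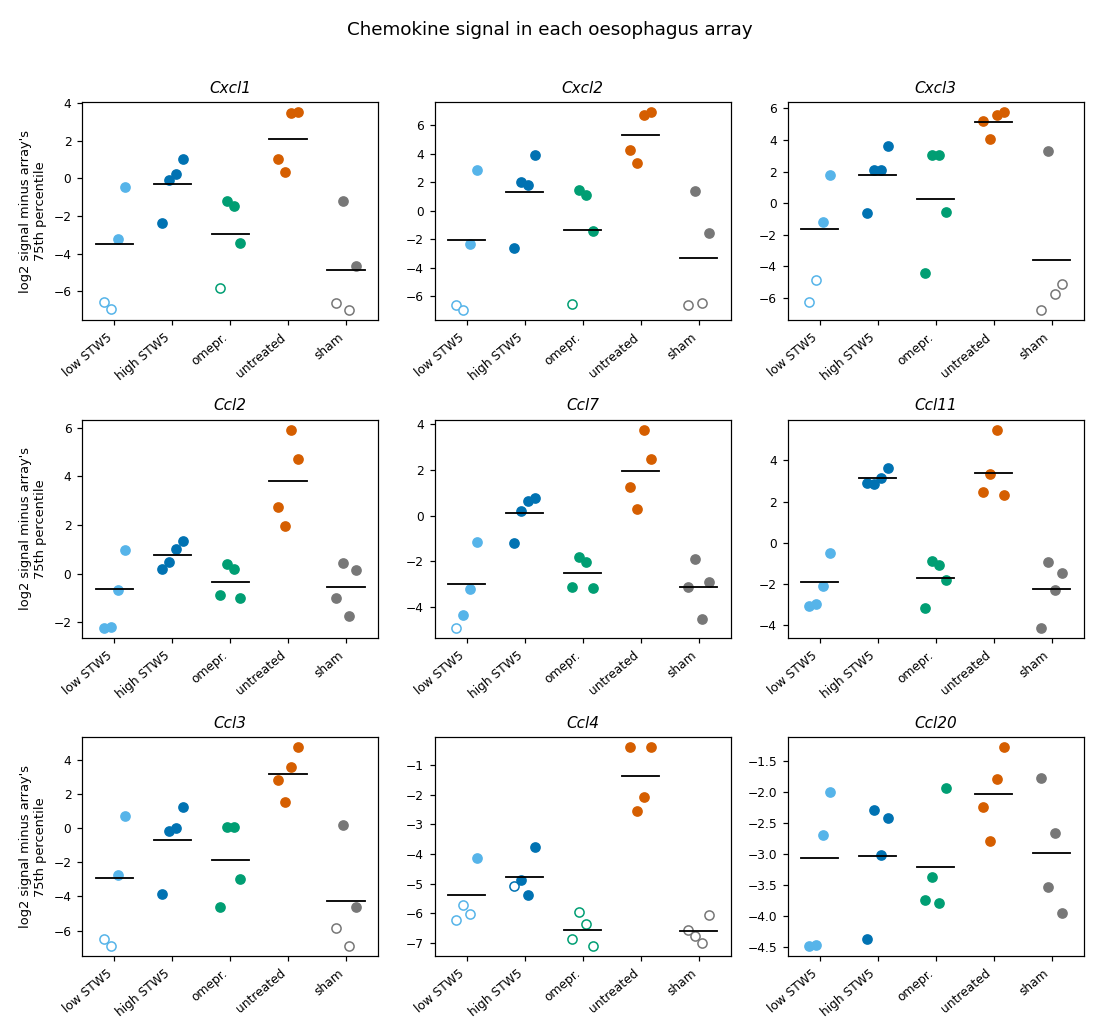
Log2 level (signal minus the array's 75th percentile) of each chemokine in each array, by group from left to right: low-dose STW5, high-dose STW5, omeprazole, untreated and sham. Filled points are arrays on which the probe was well above background, open points are arrays on which it was not, and black lines are group means with low-dose replicates 1 and 2 counted as 1 sample. Ccl11 stays between 2.85 and 3.62 on the 4 high-dose arrays, and the CXC genes spread over several log2 units among the low-dose, omeprazole and sham arrays.

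The neutrophil attractants Cxcl1, Cxcl2 and Cxcl3 were all higher in untreated than in sham rats. Cxcl1, made by epithelium and vessel walls, read 1.00, 0.33, 3.47 and 3.53 in untreated rats, against -6.64, -1.19, -7.01 and -4.65 in sham rats. No sham array reached the lowest untreated array, and sham replicate 2 was the highest of its group. Cxcl1 was 6.96 ± 1.44 higher (SE; adjusted p = 0.00207, limma). Cxcl2 was 8.65 ± 2.22 higher (adjusted p = 0.00758) and Cxcl3 8.77 ± 2.05 higher (adjusted p = 0.00437). In sham replicate 2, Cxcl2 read 1.38 and Cxcl3 3.31, whereas the other sham arrays ran from -6.61 to -1.58 for Cxcl2 and from -6.80 to -5.13 for Cxcl3. Cxcl1 and Cxcl2 were above background on 2 of 4 sham arrays and Cxcl3 on 1, so the sizes rest in part on sham signals that were not above background. Without sham replicate 2 and omeprazole replicate 2 the differences were 8.19 for Cxcl1, 10.22 for Cxcl2 and 11.07 for Cxcl3.

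The CXC genes were lower under low-dose STW5 and, for Cxcl1 and Cxcl2, under omeprazole, with a large spread among rats. Under the low dose Cxcl1 read -6.55, -6.95, -3.24 and -0.47, and under omeprazole it read -5.84, -1.19, -1.46 and -3.43, against 1.00, 0.33, 3.47 and 3.53 in untreated rats. Every treated array of these groups lay below every untreated array. Cxcl1 differed from untreated by -5.57 ± 1.56 (adjusted p = 0.0106) under the low dose and by -5.06 ± 1.44 (0.0162) under omeprazole. Cxcl2 differed from untreated by -7.41 ± 2.40 (adjusted p = 0.0234) under the low dose and by -6.69 ± 2.22 (0.0344) under omeprazole. Cxcl3 differed by -6.83 ± 2.22 (0.0237) under the low dose, but its -4.90 ± 2.05 under omeprazole did not pass (adjusted p = 0.086). Without the alike pair the omeprazole differences were -5.66 for Cxcl1 (0.00986), -7.63 for Cxcl2 (0.0245) and -5.82 for Cxcl3 (0.0205). Low-dose replicate 4 was the highest of its group for all 3, with Cxcl2 at 2.85 and Cxcl3 at 1.77, while in replicates 1 and 2 none of the 3 was above background. Fitted on the low-dose and untreated arrays of their shared slide alone, all 3 CXC genes were still called lower, with adjusted p between 0.0232 and 0.043. Left out singly, untreated replicate 3 or 4 or low-dose replicate 3 ended the low-dose call for Cxcl2 (adjusted p from 0.0510 to 0.0625) and low-dose replicate 3 that for Cxcl3 (0.0524). Without low-dose replicates 1 and 2 together the low-dose differences of Cxcl1, Cxcl2 and Cxcl3 were -3.94, -5.05 and -4.89, with adjusted p from 0.0802 to 0.146. Without omeprazole replicate 1 the omeprazole differences of Cxcl1 (-4.11, 0.0561) and Cxcl2 (-4.96, 0.115) were not called, nor was Cxcl2 without untreated replicate 1, 3 or 4 or omeprazole replicate 4.

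No CXC gene was called in either direction under high-dose STW5. Cxcl1 read -2.37, -0.10, 0.24 and 1.03 under the high dose, against 1.00, 0.33, 3.47 and 3.53 in untreated rats, and the groups overlapped. It differed from untreated by -2.38 ± 1.44 (adjusted p = 0.292) and from sham by 4.58 ± 1.44 (0.0561). Cxcl2 differed by -4.05 ± 2.22 from untreated and Cxcl3 by -3.38 ± 2.05, with all high-dose arrays of Cxcl3 below the untreated ones. High-dose replicate 1 was the lowest of its group for all 3. Without sham replicate 2 and omeprazole replicate 2, the high dose was called above sham for Cxcl1 (5.80, adjusted p = 0.0178) and Cxcl3 (7.69, 0.0104) but not for Cxcl2 (6.18, 0.0871). In order of their group means the CXC genes ran untreated, high dose, omeprazole, low dose and sham, and limma called no neighbours in that order different.

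Ccl2 and Ccl7, the monocyte attractants that lie beside Ccl11, were both high after surgery. Ccl2 read 2.74, 1.96, 5.92 and 4.69 in untreated rats, against -1.00, 0.46, -1.74 and 0.16 in sham rats, a difference of 4.36 ± 0.78 (adjusted p = 0.000841, about 20.5-fold). Under treatment Ccl2 read -2.24, -2.19, -0.65 and 0.96 with the low dose, 0.18, 0.50, 1.01 and 1.34 with the high dose and -0.89, 0.39, 0.18 and -0.99 with omeprazole. All 3 treated groups lay wholly below the untreated rats. It differed from untreated by -4.46 ± 0.84 (adjusted p = 0.000865) under the low dose, by -3.07 ± 0.78 (0.0221) under the high dose and by -4.16 ± 0.78 (0.0013) under omeprazole. The high-dose call was lost when untreated replicate 3 or 4 or high-dose replicate 1 or 2 was left out (adjusted p from 0.0556 to 0.0779) and with those 2 groups fitted alone (0.0631). None of the treated groups was called different from sham for Ccl2, with differences of -0.10 ± 0.84, 1.29 ± 0.78 and 0.20 ± 0.78 for the low dose, the high dose and omeprazole.

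Ccl7, which acts on Ccr2 and on Ccr3, stayed above sham under the high dose. It read -1.21, 0.19, 0.62 and 0.76 in high-dose rats, against -3.14, -1.90, -4.53 and -2.92 in sham rats, with no overlap and a difference of 3.21 ± 0.78 (adjusted p = 0.0207). In untreated rats it read 1.26, 0.28, 3.77 and 2.50, which overlapped the high dose (high dose minus untreated -1.86 ± 0.78, adjusted p = 0.133). Untreated rats were 5.08 ± 0.78 above sham (adjusted p = 0.000362). Ccl7 was lower than in untreated rats under the low dose (-4.97 ± 0.85, 0.00047) and under omeprazole (-4.50 ± 0.78, 0.000757). The high dose was also above the low dose (3.11 ± 0.85, adjusted p = 0.0159), where 2 members were called higher beside 10.5% of all genes. The call against sham was lost when sham replicate 1 or 3 or high-dose replicate 3 or 4 was left out, with adjusted p from 0.0569 to 0.0809, and that against the low dose without low-dose replicate 3 (0.0594) or without low-dose replicates 1 and 2 together (0.108).

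Ccl11, the eosinophil attractant eotaxin, was higher than in sham rats both under high-dose STW5 and without treatment. It read 2.93, 2.85, 3.15 and 3.62 in high-dose rats and 2.45, 3.34, 5.50 and 2.32 in untreated rats, against -4.15, -0.94, -2.31 and -1.47 in sham rats. The high-dose arrays lay inside the untreated range and wholly above sham. Under the low dose it read -3.08, -2.98, -2.10 and -0.52 and under omeprazole -3.18, -0.86, -1.08 and -1.79, all below every untreated and every high-dose array. The high dose differed from sham by 5.35 ± 0.76 (adjusted p = 0.000353, about 40.9-fold) and untreated from sham by 5.62 ± 0.76 (0.000184). The high dose differed from untreated by -0.27 ± 0.76 (adjusted p = 0.847), with a 95% interval from -1.87 to 1.34, which does not show that the levels were alike. The low dose differed from untreated by -5.28 ± 0.82 (adjusted p = 0.000322) and omeprazole by -5.13 ± 0.76 (0.000242).

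Ccl11 was also the only member called between the drugs that shared a slide. High-dose STW5 was 4.86 ± 0.76 above omeprazole (adjusted p = 0.0107, about 29.1-fold), beside 0.265% of all genes called higher. The call was lost without high-dose replicate 4 (4.70, adjusted p = 0.0646), and it held at 5.15 (0.0197) without the alike pair. Ccl7 and Ccl4 had every high-dose array above every omeprazole array as well (10.3% of all genes), with adjusted p of 0.147 and 0.136 in the fit over all groups and of 0.0159 and 0.0246 when these 2 groups were fitted alone. The fit of these 2 groups alone called 1149 of the 13596 genes, against 39 in the fit over all groups. High-dose STW5 was 5.02 ± 0.82 above the low dose for Ccl11 (adjusted p = 0.00116), with no overlap (14.6% of all genes lay wholly above). Between the low dose and omeprazole 0 members were called by limma, with 1 at an unadjusted p under 0.05, beside 1.88% of all genes called higher and 1.73% called lower.

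**Figure D2:**
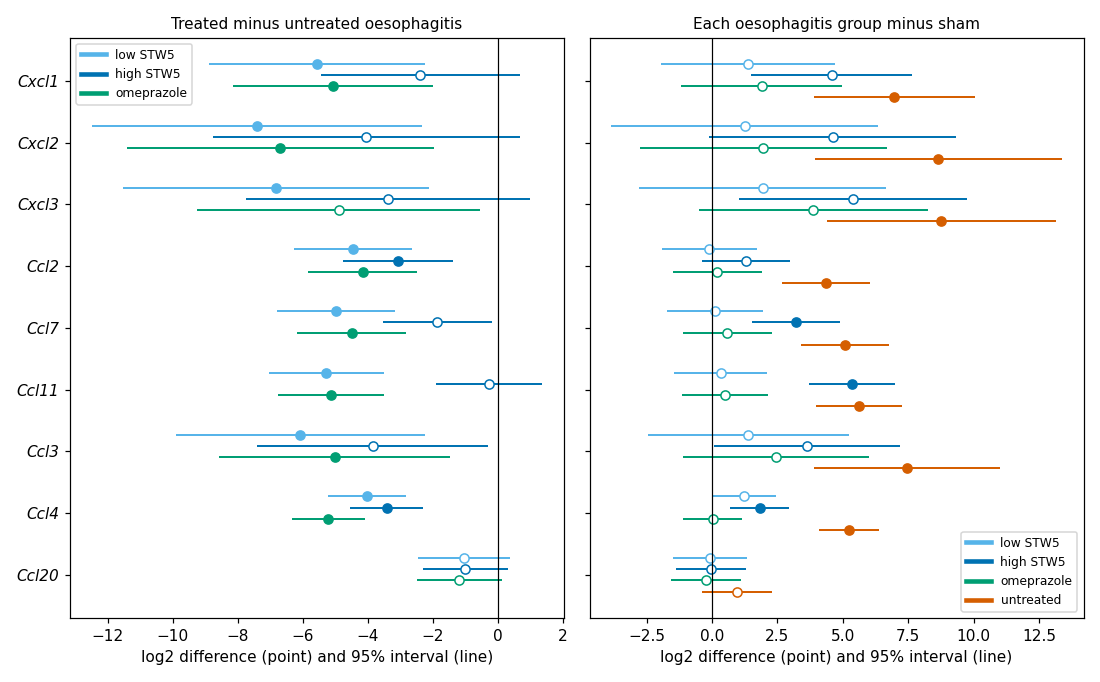
Log2 differences of each chemokine with 95% intervals. The left panel sets the low dose, the high dose and omeprazole against untreated rats, and the right panel sets these groups and the untreated rats against sham rats. Filled points were called at an adjusted p under 0.05 and open points were not. The high-dose point for Ccl11 lies at -0.27 in the left panel and at 5.35 in the right panel, beside 5.62 for untreated rats.

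Ccl3 and Ccl4, attractants of monocytes and T cells that lie beside each other, were high in untreated rats and differed in how far they could be measured. Ccl3 was 7.46 ± 1.67 higher in untreated than in sham rats (adjusted p = 0.00333), with levels from 1.52 to 4.74 in untreated rats, against -6.91 to 0.20 in sham rats. The highest sham value was again replicate 2, and 2 of 4 sham arrays were above background. Without sham replicate 2 and omeprazole replicate 2 Ccl3 was 8.96 above sham in untreated rats (adjusted p = 0.000974) and differed from untreated by -5.66 under omeprazole (0.0189). The high dose was 5.11 above sham without that pair (0.0508) and without sham replicate 2 alone (0.0459), against 3.62 with all arrays (0.171). Ccl3 was lower under the low dose (-6.07 ± 1.80, adjusted p = 0.0148) and under omeprazole (-5.02 ± 1.67, 0.0348), and the -3.84 ± 1.67 under the high dose did not pass (0.144), with all high-dose arrays below all untreated ones. The omeprazole call was lost without untreated replicate 1, 3 or 4 or omeprazole replicate 1 or 4 (adjusted p from 0.0586 to 0.104), and the low-dose call without low-dose replicates 1 and 2 together (-4.17, 0.106).

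Ccl4 read -0.42, -2.54, -2.08 and -0.41 in untreated rats and was not well above background on any sham or omeprazole array. It was at least 22.9-fold higher in untreated than in sham rats (adjusted p = 5.56e-05) and at least 28.7-fold lower under omeprazole than in untreated rats (4.32e-06). These folds take the lowest signal well above background on each dim array as its level. Under the high dose it read -5.09, -4.89, -5.38 and -3.76, above background on 3 arrays, and differed from untreated by -3.42 ± 0.52 (adjusted p = 0.000529). It differed from sham by 1.81 ± 0.52 on the measured signals (adjusted p = 0.0400), and the bound from the background level was at least 2.14-fold. That call held in 10 of 22 alternative fits. It was lost with low signals raised to the background level (1.09, 0.136), with normexp background correction (0.04, 0.919) and without the filter on dim probes (0.0512). It was also lost without the alike pair (0.0648) and when any high-dose array or sham replicate 1, 2 or 3 was left out (adjusted p from 0.0564 to 0.132). The 22 fits include the deposited value table (1.21, 0.650). Its high-dose columns hold the low-dose arrays, so it does not refit this call. Under the low dose it was above background in replicate 4 only and differed from untreated by -4.03 ± 0.56 (0.000227), a size that rests in part on signals not above background.

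Ccl20, the ligand of Ccr6 on dendritic cells and on some T and B cells, was called in no comparison. It read -2.25, -2.79, -1.79 and -1.28 in untreated rats, against -1.77, -3.53, -2.66 and -3.95 in sham rats, and the groups overlapped (difference 0.95 ± 0.61, adjusted p = 0.249, 95% interval -0.34 to 2.24). The treated groups differed from untreated by -1.03 ± 0.66 (low dose), -1.00 ± 0.61 (high dose) and -1.18 ± 0.61 (omeprazole), with adjusted p from 0.161 to 0.297. Its other probe, which was not used, gave a difference of 0.89 between untreated and sham rats.

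The CXC and CC members were contrasted through the mean of each family after centring every gene on its mean over the 19 samples. The CXC mean was 4.61 ± 1.38 (SD, n = 4) in untreated rats, against -3.52 ± 3.64 in sham rats, and the CC mean was 3.04 ± 0.99 in untreated rats, against -1.74 ± 0.91 in sham rats. Many of the CXC sham signals were not above background, and the difference between the families was not tested. The CXC mean includes Cxcl3 as read by the probe used, with which the silent probe disagreed. The CXC mean minus the CC mean was -0.73 ± 2.15 under the low dose (n = 3), 0.54 ± 1.15 under the high dose, 0.21 ± 2.32 under omeprazole, 1.57 ± 0.47 in untreated rats and -1.78 ± 2.76 in sham rats. Sham replicate 2 had 2.11 for this difference, against -4.07, -3.36 and -1.78 in the other sham rats. Leaving out single arrays moved the untreated minus sham value between 2.58 and 4.64. Under omeprazole, replicates 2 and 3 kept a CXC mean of 1.52 and 1.31, above their CC means of -0.37 and -0.62, while replicate 1 had -5.19 and -2.19. Under high-dose STW5, the CXC differences from untreated were -2.38 to -4.05 and the CC differences -0.27 to -3.84, so that the families overlapped and Ccl11 marked the upper end.

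**Figure D3:**
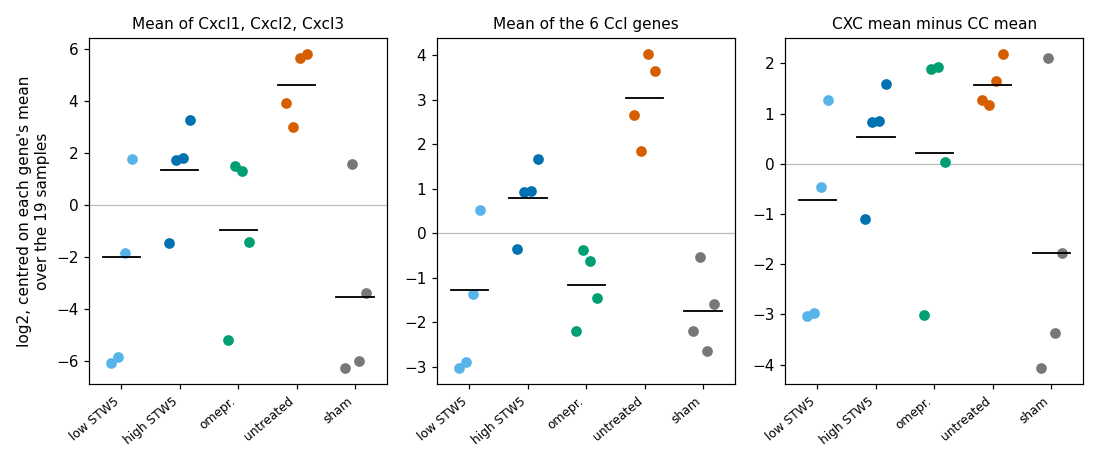
Mean of the 3 CXC genes (left), mean of the 6 CC genes (middle) and their difference (right) in each array, on a log2 scale centred on each gene's mean over the 19 samples, by group from left to right: low-dose STW5, high-dose STW5, omeprazole, untreated and sham. Lines are group means with low-dose replicates 1 and 2 counted as 1 sample. In the right panel sham replicate 2 lies at 2.11, within the range of the treated and untreated arrays.

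Across the 19 samples the 3 CXC genes followed each other with Pearson r between 0.95 and 0.98. CC genes followed each other with r between 0.28 and 0.95, and Ccl3 followed Cxcl1 and Cxcl2 with r = 0.97 for each. These values describe samples that share groups and slides. Of 12703 other genes, the 6 most like the mean CXC profile were Il1b (r = 0.97), Csf3r (0.97), Il1rl1 (0.96), Fcnb (0.95), Ifit3 (0.95) and Plek (0.94). The 6 most like the mean CC profile were Fcnb (0.99), Tnfrsf1b (0.98), Timp1 (0.98), Fcgr2b (0.97), Tlr2 (0.97) and Plin2 (0.97).

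Among the receptors of these chemokines, Ccr1, Ccr2, Ccr6 and Ccr3 (described below) were called higher in untreated than in sham rats and Cxcr2 was not called. Ccr1 was higher by 3.76 ± 0.53 (adjusted p = 0.000219), Ccr2 by 3.29 ± 0.55 (0.000523) and Ccr6 by 2.42 ± 0.57 (0.00465). Cxcr2, the neutrophil receptor, differed by 0.42 ± 0.33 (0.344). Its levels ran from 0.17 to 1.96 in untreated rats, against -0.10 to 0.82 in sham rats, and it was called in none of the 10 comparisons. The atypical receptors Ackr2 and Ackr3, which take up chemokines without signalling, were not called between untreated and sham rats (-0.68 ± 0.43 and 0.48 ± 0.44).

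Ccr3, the eotaxin receptor, was highest where Ccl11 stayed high. It read -2.31, -3.99, -3.42 and -2.71 under the high dose, above background on all 4 arrays, and was above background on 0 of the 12 arrays of the low dose, omeprazole and sham groups. In untreated rats it read -3.87, -3.87, -4.58 and -5.92, with the last not above background. Ccr3 was also called higher in untreated than in sham rats, although these groups overlapped. Under the high dose it was at least 5.86-fold higher than in sham rats (adjusted p = 0.000445) and at least 8.74-fold higher than under omeprazole (0.00361). The 1.45 ± 0.49 above untreated rats did not pass (0.0686). Ccr2 and Ccr6 also lay wholly above sham under the high dose (8.85% of all genes), whereas Ccr1 and Cxcr2 overlapped sham. Ccr2 ran from -4.00 to -2.82 under the high dose, against -6.21 to -4.42 in sham rats. Ccr6 ran from -2.01 to -0.87, against -5.17 to -2.15. The defining eosinophil markers did not follow Ccr3 uniformly. Siglec5 was at least 2.95-fold higher under the high dose than in sham rats (0.0167), while Prg2, an eosinophil granule protein, differed by 0.09 ± 0.30 (0.867) and Alox15 by -0.25 ± 0.85 (0.87), and Epx and Il5ra did not pass the brightness filter.

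**Figure D4:**
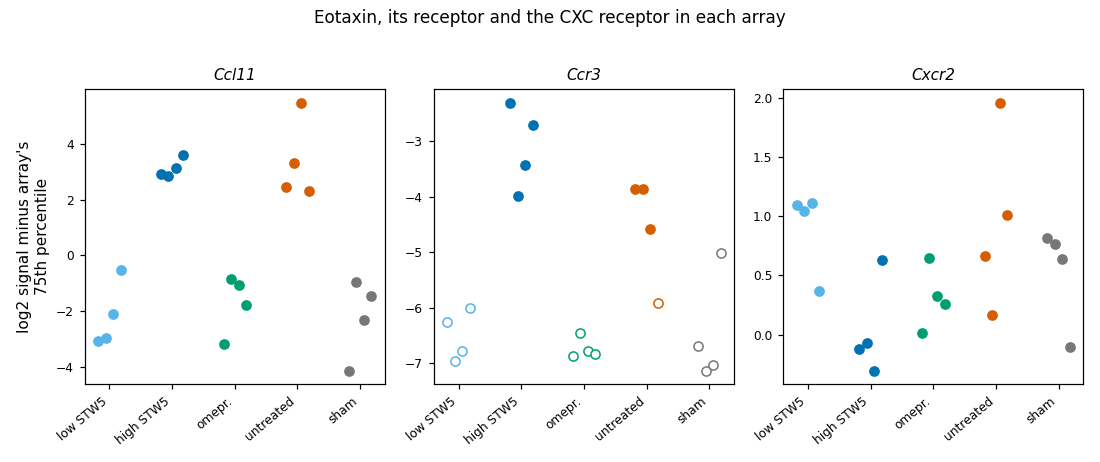
Log2 level (signal minus the array's 75th percentile) of Ccl11, of its receptor Ccr3 and of the CXC receptor Cxcr2 in each array, by group from left to right: low-dose STW5, high-dose STW5, omeprazole, untreated and sham. Filled points are arrays on which the probe was well above background and open points are arrays on which it was not. Ccr3 lies between -3.99 and -2.31 under the high dose and is not above background on any low-dose, omeprazole or sham array.

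Of 9 measured cytokines that induce these chemokines, 4 were called higher in untreated than in sham rats, beside 15.0% of all genes. These were Tnf by 4.24 ± 0.69 (adjusted p = 0.00048), Osm by 2.89 ± 0.52 (0.000843), Il1b by 7.93 ± 1.62 (0.0019) and Il6 at least 4.64-fold (0.0137). Under the high dose Tnf (-2.86 ± 0.69, 0.0178) and Osm (-2.01 ± 0.52, 0.0232) were lower than in untreated rats, beside 5.14% of all genes. Of the 9 cytokines, 4 were lower than in untreated rats under the low dose (16.2% of all genes) and 3 under omeprazole (15.0%). Il1b was 5.98 ± 1.62 above sham under the high dose (0.033), beside 5.65% of all genes called higher. Of 10 measured NF-kB subunits and feedback genes 8 were higher in untreated than in sham rats, beside 15.0% of all genes. Against untreated rats 5 were lower under the low dose (16.2% of all genes), 7 under the high dose (5.14%) and 4 under omeprazole (15.0%). Nfkbia, the inhibitor that NF-kB itself induces, differed from untreated by -1.07 ± 0.28 (0.00682), -1.52 ± 0.26 (0.00154) and -1.74 ± 0.26 (0.000229) under the low dose, the high dose and omeprazole. High-dose rats had 0 of the 10 called against sham by limma.

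Of 21 other chemokine ligands measured, 11 were called higher and 0 lower in untreated than in sham rats, with a median difference of 1.25. The shares over all genes were 15.0% and 17.8%. Ccl12, a further Ccr2 ligand, was 4.53 ± 0.80 higher (adjusted p = 0.000789), and Pf4, a platelet chemokine, 3.11 ± 0.55 (0.000727). Under the low dose 13 of the 21 were lower than in untreated rats (16.2% of all genes) and under omeprazole 8 (15.0%). Under the high dose 1 was lower (Cxcl16, -0.74 ± 0.22, 0.0431), beside 5.14% of all genes. Cxcl12 (1.54 ± 0.33, 0.0101) and Cxcl9 (1.47 ± 0.41, 0.038) were the 2 of 21 called above sham under the high dose, beside 5.65% of all genes.

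Keratins of squamous epithelium (Krt5, Krt13 and Krt14) and striated muscle genes (Acta1 and Ckm) were well above background on all 20 arrays. Markers of the cells these chemokines attract were counted in the same comparisons. Between untreated and sham rats 10 of 11 measured neutrophil markers and 11 of 11 monocyte and macrophage markers were called higher, beside 15.0% of all genes, and their summed levels, as means of centred log2 levels, ran from 1.33 to 4.10 in untreated rats, against -3.05 to 0.62 in sham rats, for neutrophils, and from 1.46 to 2.62, against -2.27 to -0.10, for macrophages. Of the eosinophil markers 1 of 3 measured was higher (Siglec5), of the mast cell markers 1 of 6 (Tpsab1) and of the T and NK cell markers 7 of 8. Against untreated rats, 11 of 11 macrophage markers were lower under the low dose and 11 of 11 under omeprazole, beside 16.2% and 15.0% of all genes, and 8 and 6 of 11 neutrophil markers were lower under these drugs. High-dose rats, with 5.65% of all genes called higher than in sham, were higher in 7 of 11 macrophage markers, 2 of 11 neutrophil markers (Retnlg and Fcnb), 1 of 3 eosinophil markers and 0 of 6 mast cell markers. High-dose rats differed from untreated rats in 2 of 11 macrophage markers, both lower (Cd14 and Tyrobp), and in 2 of 11 neutrophil markers, both lower (Camp and Mmp8). The share of all genes called lower there was 5.14%. In the other direction, 7 of 11 squamous epithelium markers and 6 of 10 striated muscle markers were lower in untreated than in sham rats, beside 17.8% of all genes. The part of these cell types in the chemokine differences was not tested.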

How the data were processed

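Tissue RNA was labelled with Cy3 and hybridised to one-colour Agilent rat arrays, 1 array per sample, per the labels. The processed signal intensity of each spot was deposited by the authors as background-corrected by Agilent Feature Extraction (version 10.7.3.1, per the file headers). A table of processed values, also deposited by the authors, proved on comparison with the scanned arrays to be a ratio of signal to the array median, and was used as an alternative only. Spots of a probe were averaged without outlier flags, log2 was taken and each array's 75th percentile subtracted. Probes well above background on at least 4 of 20 arrays were kept (19914), with the brightest per gene used. limma 3.58.1 (R 4.3.3; lmFit and eBayes) fitted 5 groups over 19 samples (14 residual degrees of freedom) and 13596 genes, with Benjamini-Hochberg adjustment over all genes. The method was tested on simulated data.

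The labels give 4 animals per group. Replicate numbers did not pair the samples: deviations of same-numbered samples correlated between -0.32 and 0.58 (median 0.08). The number of arrays limits the precision. On each array 61.5 to 70.5% of features were well above background. A gene below background on all arrays of a group has only a bound there. The 9 members and the gene lists were chosen with earlier results of these data known. By the naming rule the 9 members, the measured genes of lists of 7 or fewer and up to 4 genes with the smallest p from longer lists could be named; of these, the text names the members and some of the others. Promoters and positions come from RefSeq (GRCr8). A receptor of these chemokines is not reported here.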

Additional observations from a re-analysis of the deposited data

Results flagged for a closer look

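Of 36 sets of 4 arrays (9 chemokines in the high-dose, omeprazole, untreated and sham groups), 1 held an array farther from its neighbours than Dixon's 95% critical value allows. Cxcl3 in sham replicate 2 stood at 3.31, and its gap to the nearest sham array was 0.835 of the group's range, with the other sham arrays not above background. Chance would give about 1 in 20 such sets. The same array was the highest of its group for Cxcl1 (-1.19), Cxcl2 (1.38) and Ccl3 (0.20), and omeprazole replicate 2 had nearly the same values (Cxcl3 3.05, Cxcl1 -1.19, Cxcl2 1.45 and Ccl3 0.09).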

How the results depend on the processing

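Each comparison was refitted under 13 other settings and with each of its arrays left out. Of 1989 refitted member differences 1890 kept their direction and their side of the threshold or were uncalled both times, 53 lost a call, 42 gained a call and 4 reversed. Among the uncalled, 95 changed sign. All 4 reversals, and some of the lost and gained calls, came from the deposited value table, in which the STW5 doses change places. Such changes compare other arrays under the same names. In the reversals, high against low dose became -5.02 for Ccl11 and -3.11 for Ccl7. High dose against omeprazole became -0.15 and low dose against omeprazole 4.86 for Ccl11. With that table, members called numbered 2 for the low dose and 8 for the high dose against untreated, 3 and 0 against sham, and 1 and 0 against omeprazole. Array weights gave 8 (high dose against sham), 5 (omeprazole against sham), 7 (high against low dose) and 3 (high dose against omeprazole) members called. The weighted shares over all genes for these comparisons are not given, so these counts cannot be set against them. In other comparisons array weights also changed the calls over all genes, to 5602 for untreated against sham (4458 in the main fit). Against untreated rats they called 5090 genes for the low dose (4972), 1795 for the high dose (1293) and 3565 for omeprazole (3651). The 2 compared groups alone gave 1 for the high dose against untreated and 3 for the high dose against omeprazole. Over all 13596 genes these fits called 501 and 1149, against 1293 and 39 in the main fit. Leaving out single arrays gave 1 to 5 members for the high dose against sham, 1 to 3 for the high dose against untreated, 4 to 7 for omeprazole against untreated, 1 to 3 for high against low dose and 0 to 1 for the high dose against omeprazole, with 5 reached without sham replicate 2, 4 without omeprazole replicate 1 and 0 without high-dose replicate 4. Without low-dose replicates 1 and 2, chosen after seeing the data, 4 members were called for the low dose against untreated and 1 for high against low dose; without sham 2 and omeprazole 2, also chosen then, the counts for untreated against sham (8), omeprazole against untreated (8) and high dose against sham (4) stayed within 1.5 times. The cause of these changes was not tested. The CXC minus CC differences were recomputed under only some of these settings, for the comparisons with untreated or sham rats. The settings were normexp background, quantile normalization, low signals raised to the background level, the deposited value table and single arrays left out. Under these none moved by more than 1.94, the pooled SD of single samples within groups. The replicate block with all 20 arrays gave 8 members for untreated against sham, 8 for the low dose, 2 for the high dose and 7 for omeprazole against untreated, and changed no count of members by over 1.5 times; the numbers did not pair the samples. Scan batch as a block gave no separate value because it coincides with slide. Scaling to the median or normexp background moved the median of all genes by up to 0.12, and quantile normalization by up to 0.07.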
